A study of Mus musculus with 144 samples.

Results

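Apoe and 9 genes that move, store or break down lipid were followed through single cells of the mouse retina, without injury and after crush of the optic nerve. The 10 genes were Apoe, Lpl, Abca1, Abcg1, Ch25h, Fabp5, Plin2, Soat1, Npc2 and Lipa, found by symbol among 55364 gene rows, and each had 1 row. They were selected because Apoe was lower and Lpl higher at day 4 in these same cells, so those differences are given below as descriptions. A filter on low values asked for 1 FPKM or more in 10% of cells or more; 9 of the 10 passed it, of 8679 genes in all. Fabp5 did not pass it and is given by its level only.

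The cells came from Iba1-EGFP mice aged 16 weeks, a strain in which green fluorescence reports Iba1, a gene of microglia and of other macrophages. They were sorted 1 per well from eyes with no treatment (54 cells) or from eyes 2 days (54 cells) or 4 days (36 cells) after the optic nerve was crushed, an injury to the axons of retinal ganglion cells. The 3 plates each held 18, 18 and 12 cells of these groups, always in separate rows of wells, so plate row and time point cannot be told apart. No animal is named for any cell, so each time point counted as 1 sample of cells. No test across cells was made, SDs describe the spread between cells, and each difference is given also within the 3 plates.

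Reads assigned to genes are given in M, for 1e+06: the median cell held 5.31 M, the shallowest 0.190 M and the deepest 18.9 M, and only 3 held less than 1 M. The median cell had 2792 genes at an FPKM of at least 1 among untreated cells, 3469 at day 2 and 3957.5 at day 4. The median of all measured genes was itself 0.21 higher at day 2 and 0.45 higher at day 4 than in untreated cells on the log2(FPKM + 1) scale. The label of microglia was set beside 11 markers: all cells but 1, at day 4, had at least 3 of them at an FPKM of 20 or more. The list includes Aif1, which encodes Iba1, the gene behind the sorting. The cells with border macrophage markers described below all met this mark too. It therefore does not separate microglia from other macrophages. FPKM, fragments per kilobase of exon and 1e+06 reads, is a share of each cell's reads and is scaled by gene length, so levels of different genes can be set side by side.

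Lipids cross between cells on lipoprotein particles. Apolipoprotein E, the product of Apoe, is a main protein of such particles in the nervous system, and the transporters encoded by Abca1 and Abcg1 load them with cholesterol. Lipoprotein lipase, encoded by Lpl, frees fatty acids from lipoprotein triglyceride. Inside the cell, the products of Lipa and Npc2 release and carry sterol in the lysosome, that of Soat1 re-esterifies cholesterol for storage, and that of Plin2 coats the lipid droplets where it is stored. Phagocytes that have taken up myelin or dying cells are known to switch on many of these genes, and Apoe, Lpl and Fabp5 are widely used as markers of activated microglia.

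On the build of the submitters' notes, the deposited positions place Lpl (ENSMUSG00000015568) at chr8:68880491-68907448 on the plus strand and Plin2 (ENSMUSG00000028494) at chr4:86648386-86670060 on the minus strand. Of the others, Abcg1 (ENSMUSG00000024030) at chr17:31057675-31117988 and Fabp5 (ENSMUSG00000027533) at chr3:10012548-10016607 are on the plus strand. On the minus strand are Abca1 (ENSMUSG00000015243) at chr4:53030787-53159895, Soat1 (ENSMUSG00000026600) at chr1:156424525-156474331, Npc2 (ENSMUSG00000021242) at chr12:84754562-84773152, Lipa (ENSMUSG00000024781) at chr19:34492318-34527474 and Ch25h (ENSMUSG00000050370), which lies near Lipa on the same chromosome. Values are sums over the exons of each gene.

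The 250 bases before the start site are shown for 3 members whose values carry the account: Apoe, present at 2 very different levels, Plin2, higher at both times after crush, and Ch25h, which was high in a few cells of every group. They are from the RefSeq promoter table on build GRCm38.p6, in which 7 of the 10 members had an entry, and read 5′ to 3′ toward the gene. Lpl, Abcg1 and Fabp5 had no entry. The Apoe window is chr7:19699189-19699438, minus strand, just before the start of ENSMUSG00000002985 (chr7:19696109-19699188), the nearest of 3 starts in the table. The Plin2 window is chr4:86670060-86670309, minus strand, and the Ch25h window is chr19:34475149-34475398, minus strand. Capitals mark matches to 6 motifs searched on both strands. The TATA box was searched as TATAAA, the GC box as GGGCGG and the AP-1 site as TGANTCA. The nuclear receptor site was searched as AGGTCA, the CCAAT box by those letters and the E box as CACGTG.
Apoe: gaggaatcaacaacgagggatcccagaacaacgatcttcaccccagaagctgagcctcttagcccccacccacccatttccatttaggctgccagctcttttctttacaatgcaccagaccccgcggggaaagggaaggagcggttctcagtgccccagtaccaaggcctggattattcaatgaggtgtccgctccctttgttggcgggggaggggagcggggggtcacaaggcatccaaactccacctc
Plin2: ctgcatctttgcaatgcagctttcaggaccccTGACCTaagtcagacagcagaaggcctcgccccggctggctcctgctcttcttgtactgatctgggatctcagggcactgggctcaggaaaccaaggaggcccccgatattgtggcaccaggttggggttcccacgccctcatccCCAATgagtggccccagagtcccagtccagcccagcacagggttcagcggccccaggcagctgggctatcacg
Ch25h: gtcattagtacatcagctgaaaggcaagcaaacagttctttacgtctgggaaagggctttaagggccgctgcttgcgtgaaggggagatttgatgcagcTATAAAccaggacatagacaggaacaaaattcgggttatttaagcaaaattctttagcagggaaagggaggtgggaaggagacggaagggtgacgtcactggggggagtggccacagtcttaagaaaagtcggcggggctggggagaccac
The Apoe window held none of the 6 motifs, so it has no capitals. The Plin2 window held AGGTCA on the opposite strand, 218 to 213 bases before the start, and CCAAT at 73 to 69 bases. The Ch25h window held TATAAA at 151 to 146 bases before the start. Among all 32851 windows of this length in the table, 14% held AGGTCA, 33.8% CCAAT and 12.4% TATAAA. The matches describe letters only, and no binding was measured.

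Apoe was present in every cell, but at 2 levels far apart. The lowest, median and highest values were 3.26, 95.7 and 55086 FPKM in untreated cells, 5.73, 152 and 53884 at day 2, and 4.92, 55.0 and 28177 at day 4. No untreated cell lay between 467 and 3150 FPKM, and a threshold of 1000 FPKM, set after the values were seen, separated the levels. Cells at or above it are called Apoe-high here. At day 2 the highest cell under the threshold had 662 FPKM and the lowest above it 1665, and at day 4 these were 686 and 10332. The spread of Apoe between cells was the second largest of all 8679 measured genes, with an SD of 3.81 on the log2(FPKM + 1) scale. In a single untreated cell Apoe took 11.8% of all assigned reads, a share exceeded by no measured gene other than Cst3, whose highest was 17.7%. Cst3 encodes the secreted protease inhibitor cystatin C.

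**Figure D1:**
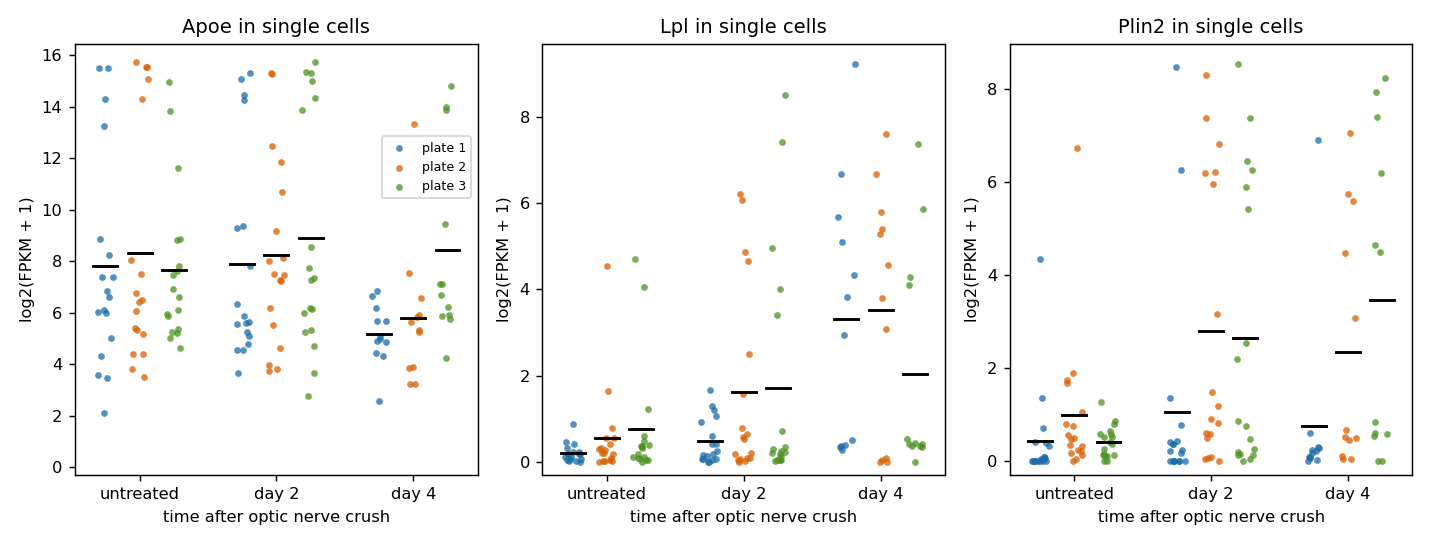
Each point is 1 cell and the y axis is log2(FPKM + 1) of Apoe, Lpl or Plin2. Colours are the 3 plates, 18 cells each for untreated and day 2 and 12 for day 4, and bars are plate means. Apoe forms an upper and a lower band in each group except on plate 1 at day 4, which has no upper band, whereas most untreated cells have almost no Lpl or Plin2, and more cells have high values after crush.

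Apoe-high cells were 12 of 54 untreated cells, or 22.2% with an exact binomial 95% interval of 12% to 35.6%. They were 15 of 54 at day 2 (27.8%, interval 16.5% to 41.6%) and 4 of 36 at day 4 (11.1%, interval 3.11% to 26.1%). The intervals overlap, and they cover counting error only. By plate, the numbers were 4, 5 and 3 of 18 in untreated cells, 4, 5 and 6 of 18 at day 2, and 0, 1 and 3 of 12 at day 4. The smaller share at day 4 was therefore seen on plates 1 and 2, while on plate 3 the share was 25% at day 4 against 16.7% in untreated cells.

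The mean over cells followed the number of Apoe-high cells. Mean log2(FPKM + 1) of Apoe was 7.92 ± 3.91 (SD, n = 54 cells) in untreated cells, 8.35 ± 4.06 (n = 54) at day 2 and 6.46 ± 3.01 (n = 36) at day 4. Day 4 minus untreated was -1.46, with -2.62, -2.51 and 0.76 on plates 1, 2 and 3, so plate 3 went the other way; without that plate it was -2.56. Day 4 minus day 2 was -1.89, with -2.73, -2.44 and -0.49, and had 1 sign on all plates. Day 2 minus untreated was 0.43, with 0.11, -0.07 and 1.25. On the linear scale, mean Apoe was 7067 FPKM without injury, 7705 at day 2 and 1999 at day 4, a ratio of 0.283 between day 4 and untreated cells, and of 0.177 without the highest cell at day 4. Each of these differences was smaller than the SD between cells.

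Below the threshold, Apoe differed less between the time points. The median of the other cells was 64.8 FPKM in 42 untreated cells, 56.9 in 39 cells at day 2 and 49.8 in 32 cells at day 4. Their mean log2(FPKM + 1) was 6.01, 6.07 and 5.52. The median of low Apoe in cells that shared a plate column with an Apoe-high cell, against cells that did not, was 66.9 FPKM (33 cells) against 40.4 (9) in untreated cells. It was 52.5 (30) against 148 (9) at day 2 and 44.2 (26) against 65.7 (6) at day 4, so the order differed between groups. By plate row it was 65.5 (77) against 46.9 (36) over all groups. Each row held cells of 1 time point only, so in this pooled comparison row and time point cannot be told apart.

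Many Apoe-high cells carried genes of border macrophages, the macrophages of meninges, vessels and other tissue borders. Of 8 markers of these cells, at least 3 stood at 20 FPKM or more in 6 of 12 Apoe-high untreated cells, 8 of 15 at day 2 and 2 of 4 at day 4. No cell with less Apoe met that mark, of 42, 39 and 32. The summed level of the 8 markers had a median of 1377 FPKM in Apoe-high untreated cells, from 14.9 to 6444, against 2.99 in the others, from 0.123 to 63.4. At day 2 the medians were 678 (range 0 to 6174) and 1.94 (0 to 189), and at day 4 they were 2578 (1616 to 3704) and 1.87 (0.0395 to 78.3). The 2 sets overlapped in untreated cells and at day 2, but not at day 4. Mrc1 was at 20 FPKM or more in 6, 8 and 1 cells, all of them Apoe-high, F13a1 in 7, 8 and 3, likewise all Apoe-high, and Pf4 in 10, 12 and 4, of which 8, 9 and 3 were. Lyve1, Cd163, Cbr2 and Clec10a had a median of 0 over the cells of every group. At 20 FPKM or more were 2, 2 and 0 cells for Lyve1 and 1, 6 and 1 for Cd163. For Cbr2 they were 0, 1 and 0, and for Clec10a 1, 1 and 0, and all of these cells were Apoe-high.

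**Figure D2:**
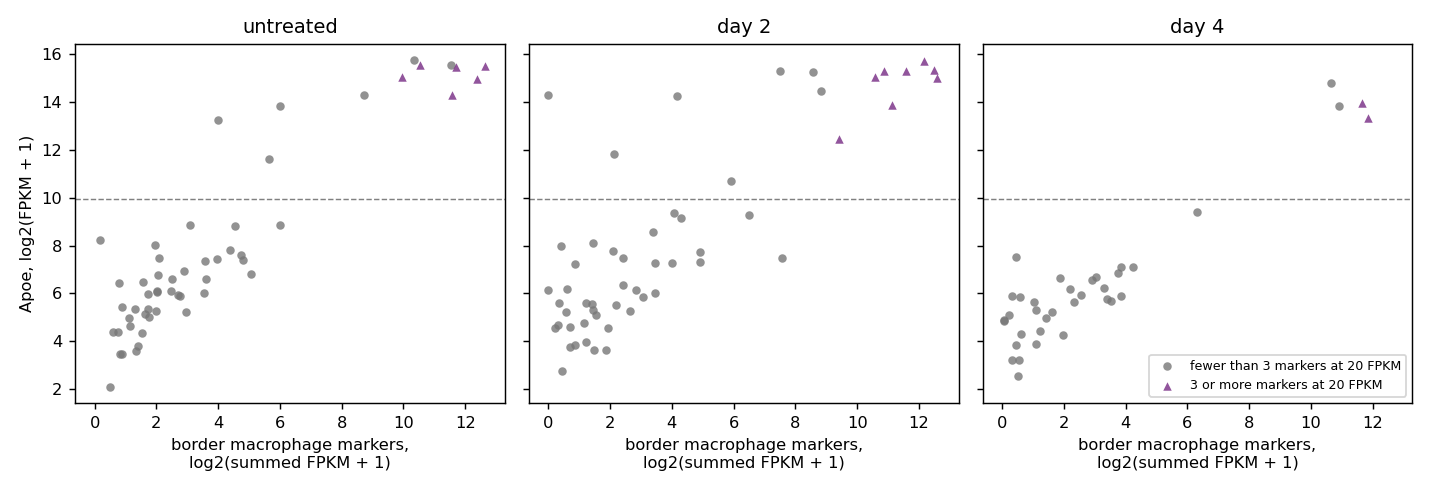
Each point is 1 cell, with the summed FPKM of 8 border macrophage markers on the x axis and Apoe on the y axis, both as log2(FPKM + 1), and the dashed line is 1000 FPKM of Apoe. Triangles are the 16 cells with 3 or more markers at 20 FPKM, and all of them lie above the line.

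Across the 31 Apoe-high cells, the 16 with 3 or more border macrophage markers at 20 FPKM had a median of 34140 FPKM of Apoe. The 15 that fell short of that mark had 20310, and they were not all free of these markers. The summed level of the markers ran from 0 to 3003 FPKM in the 15, against 678 to 6444 in the 16. The lowest Apoe value was 5700 FPKM in the first set and 1665 in the second, and the highest 53884 and 55086. Tmem119, a gene of microglia, had a median of 12.7 FPKM in the 16 cells, 243 in the 15 and 596 in the 113 other cells. The summed level of the 11 microglia markers followed the same order, with medians of 3393, 4974 and 9413 FPKM. At day 4, with 2 Apoe-high cells of each kind, the first 2 sets were reversed, at 139 against 10.6 FPKM of Tmem119 and 4141 against 3988 in the sum. The 2 day 4 cells short of the mark had 1616 and 1933 FPKM of summed border macrophage markers. Without the 16 cells, but with the 15 kept, the share of Apoe-high cells was 12.5% without injury, 15.2% at day 2 and 5.88% at day 4. Day 4 minus untreated was then -0.98 for Apoe, and day 4 minus day 2 was -1.19 and no longer had 1 sign on all plates. What the cells with border macrophage markers contribute to the differences was not tested beyond these values.

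The genes most like Apoe over all cells of the 3 groups, after the mean of each time point on each plate was subtracted, were Ms4a4a (Pearson r = 0.79), Ms4a7 (0.77), Pf4 (0.75), F13a1 (0.74) and H2-Eb1 (0.71). Pf4 encodes a chemokine, F13a1 a clotting factor subunit and H2-Eb1 a chain of MHC class II. Those least like it were Cst3 (r = -0.62), Sparc (-0.55), Selplg (-0.47), Gfm2 (-0.46) and Tmem119 (-0.46). These are ranks among 3452 eligible genes and describe the cells, which share plates and time points. FPKM is a share of reads, so reads taken by 1 gene lower the values of the rest. Apoe took a median of 7.04% of reads in the 12 Apoe-high untreated cells. Median Cst3 was 6910 FPKM in the 6 of them with 3 or more border macrophage markers and 20400 in the other 6. It was 46242 FPKM in the 42 untreated cells with less Apoe. What the share of reads contributes to the negative values was not tested.

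Lpl was higher at day 4 than in untreated cells on every plate, and of the 31 cells with at least 5 FPKM of it 1 was Apoe-high. Most untreated cells had next to none: the lowest, median and highest values were 0, 0.145 and 25.1 FPKM. They were 0, 0.198 and 364 at day 2, and 0, 7.09 and 602 at day 4. Cells with at least 5 FPKM, a threshold set after the values were seen and called Lpl-positive here, were 3 of 54 untreated cells, 9 of 54 at day 2 and 19 of 36 at day 4. By plate the numbers were 0, 1 and 2 of 18 in untreated cells, 0, 4 and 5 of 18 at day 2, and 7, 8 and 4 of 12 at day 4. Every plate thus had its highest share at day 4, and plate 1 had no Lpl-positive cell before it.

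Mean log2(FPKM + 1) of Lpl was 0.51 ± 1.01 (SD, n = 54 cells), 1.27 ± 2.10 (n = 54) and 2.96 ± 2.82 (n = 36) for the untreated, day 2 and day 4 cells. Day 4 minus untreated was 2.45, with 3.11, 2.96 and 1.28 on the 3 plates, a difference larger than the SD of untreated cells and smaller than that at day 4. Day 4 minus day 2 was 1.69 (2.83, 1.91 and 0.32), and day 2 minus untreated was 0.76 (0.27, 1.05 and 0.96). Mean Lpl was 1.40, 14.8 and 43.3 FPKM, which is 30.8-fold higher at day 4 than in untreated cells and 2.92-fold higher than at day 2. Single cells carry much of these folds: without the highest cell at day 4 they were 19.5 and 1.84, and without the highest cell at day 2 the second was 5.24. Lpl-positive cells were deeper and richer: at day 4 they had a median of 6.98 M reads and 4776 genes, against 5.04 M and 3480 in the other cells. When a linear fit also held each cell's number of genes at 1 FPKM, day 4 minus untreated was 1.79. Without the 16 cells with border macrophage markers, day 4 minus day 2 was 1.49 for Lpl and no longer had 1 sign on all plates.

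**Figure D3:**
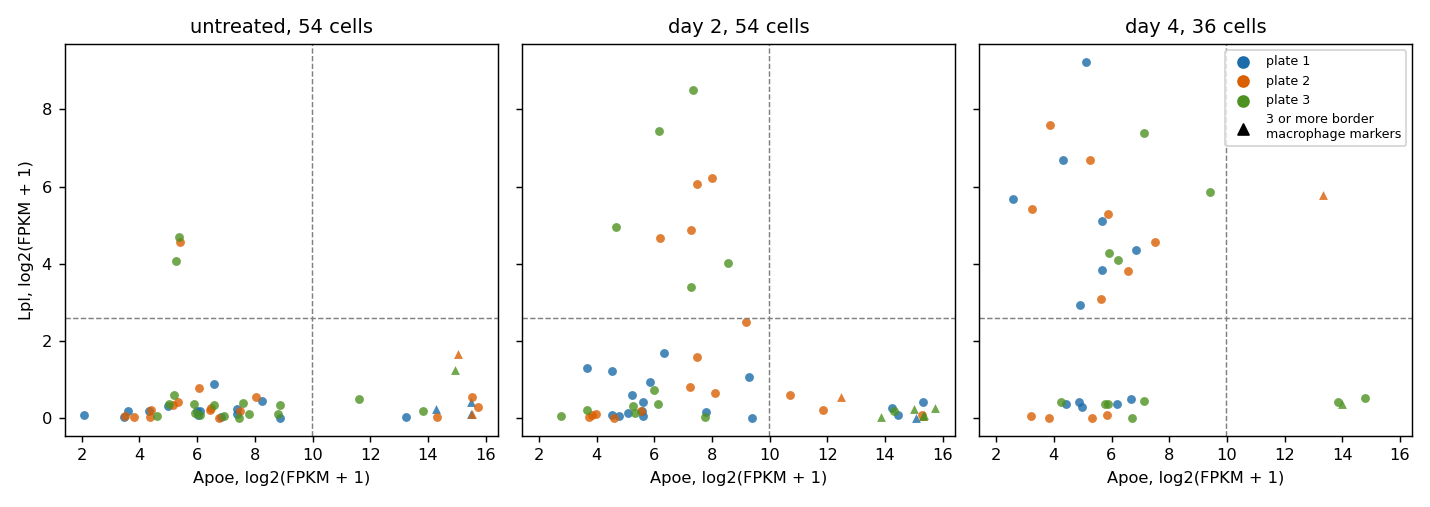
Each point is 1 cell, with Apoe on the x axis and Lpl on the y axis as log2(FPKM + 1), for untreated cells, day 2 and day 4. Dashed lines are 1000 FPKM of Apoe and 5 FPKM of Lpl, colours are plates, and triangles are cells with 3 or more border macrophage markers; the upper right field holds 1 cell, at day 4.

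Lpl and high Apoe were found together in 1 cell of all those sorted. Among Apoe-high cells, Lpl was at 5 FPKM or more in 0 of 12 untreated cells, 0 of 15 at day 2 and 1 of 4 at day 4. Among the others, it was so in 3 of 42, 9 of 39 and 18 of 32. The cell with both was a day 4 cell of plate 2, with 10332 FPKM of Apoe and 54.4 of Lpl, and it also held border macrophage markers. A count of 0 of 15 allows a share of up to 21.8% by the exact binomial interval, and the share among the other cells at day 2 was 23.1%, with an interval of 11.1% to 39.3%. So few Apoe-high cells do not show that Lpl is absent from them.

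Apart from that gap in the upper field, the level of one gene said little about the other. Spearman's rho between Apoe and Lpl was 0.11 over 54 untreated cells, -0.05 over 54 cells at day 2 and 0.03 over 36 cells at day 4. Within plates it ran from 0.20 to -0.04 in untreated cells, from 0.15 to -0.24 at day 2 and from 0.19 to -0.10 at day 4. The cells of a group share plates, and in untreated cells low Lpl moved with its neighbours: below 5 FPKM, its rho with the highest Lpl in another well of the same plate column was 0.67 over 51 cells, against 0.18 over 45 cells at day 2 and 0.02 over 17 at day 4. Cells of the same plate column largely share that highest value, and the plates were pooled, so the number of cells overstates what these rho values rest on. Whether low values hold signal from other wells was not tested. The 5 genes most like Lpl, by the measure used for Apoe, reached an r of 0.45 for Cd302, 0.40 for Pgk1, 0.38 for AI506816, 0.37 for Pgk1-rs7 and 0.36 for Yif1a. Pgk1 encodes a glycolytic enzyme, and Pgk1-rs7 is a near-identical copy of it, so reads between them are uncertain. The 5 lowest were Hpcal1 (-0.24), Aldh3a2 (-0.22), Cdca7 (-0.20), Elf1 (-0.20) and Ppil4 (-0.19), weak values for sparse genes.

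Plin2, the lipid droplet coat gene, was higher at both times after crush. The lowest, median and highest values were 0, 0.248 and 105 FPKM in untreated cells, 0, 0.447 and 372 at day 2, and 0, 0.435 and 303 at day 4, so again a minority of cells carried the difference. At 20 FPKM or more were 1 of 54 untreated cells, 14 of 54 at day 2 and 11 of 36 at day 4. By plate these were 0, 1 and 0 of 18, then 2, 6 and 6 of 18, then 1, 4 and 6 of 12. Mean log2(FPKM + 1) was 0.61 ± 1.11 (SD, n = 54 cells), 2.16 ± 2.90 (n = 54) and 2.18 ± 2.87 (n = 36). Day 2 minus untreated was 1.56 (0.63, 1.81 and 2.24 by plate) and day 4 minus untreated was 1.57 (0.31, 1.37 and 3.04). Day 4 minus day 2 was 0.02, with both signs among the plates. When the fit also held each cell's number of genes at 1 FPKM, the day 4 difference was 0.60, and without plate 3 it was 0.84. With a pseudocount of 10 the differences were 0.86 at day 2 and 0.85 at day 4.

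High Plin2 was found in both the Apoe-high and the Lpl-positive cells. At day 2, of the 14 cells at 20 FPKM or more, 9 were Apoe-high, 4 were Lpl-positive and 1 was neither. At day 4, of the 11 cells, 1 was Apoe-high only, 7 were Lpl-positive only, 1 was both and 2 were neither. Seen from the other side, 9 of 15 Apoe-high cells had Plin2 at that level at day 2, against 5 of 39 other cells. The same order held on each plate at day 2, with 2 of 4 against 0 of 14, 4 of 5 against 2 of 13, and 3 of 6 against 3 of 12. The Apoe-high cells at day 2 were also deeper, with medians of 3949 genes and 5.78 M reads against 3194 and 4.91 M in the others, and the part of depth was not tested. At day 4 it was 2 of 4 Apoe-high cells against 9 of 32 others, with the reverse order on plate 3, 1 of 3 against 5 of 9. In untreated cells 0 of 12 Apoe-high cells did, with a median of 2490 genes and 32941 FPKM of Apoe, which was 32747 at day 2. Among Apoe-high cells at day 2, those with 3 or more border macrophage markers at 20 FPKM held high Plin2 in 4 of 8. Those short of that mark did in 5 of 7. Among Lpl-positive cells, high Plin2 was found in 4 of 9 at day 2 and 8 of 19 at day 4, against 10 of 45 and 3 of 17 of the rest. By plate this was 1 of 7 against 0 of 5, 4 of 8 against 0 of 4 and 3 of 4 against 3 of 8 at day 4. At day 2, plate 1 had no Lpl-positive cell, plate 2 had the reverse order with 1 of 4 against 5 of 14, and plate 3 had 3 of 5 against 3 of 13. The Lpl-positive cells were deeper as well, with 4126 against 3283 genes at day 2 and 4776 against 3480 at day 4. Spearman's rho of Plin2 with Apoe was 0.26, 0.47 and 0.47 in the 3 groups, positive on every plate. With Lpl it was 0.35, 0.20 and 0.23, and within plates it had both signs: -0.08, 0.43 and 0.52, then 0.17, -0.05 and 0.28, then -0.14, 0.92 and -0.09. As Pearson r of log2 values, Plin2 with Apoe was 0.03, 0.51 and 0.23. That r was negative on plate 2 in untreated cells (-0.12) and on plate 3 at day 4 (-0.08), so the sign within plates depends on the measure.

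**Figure D4:**
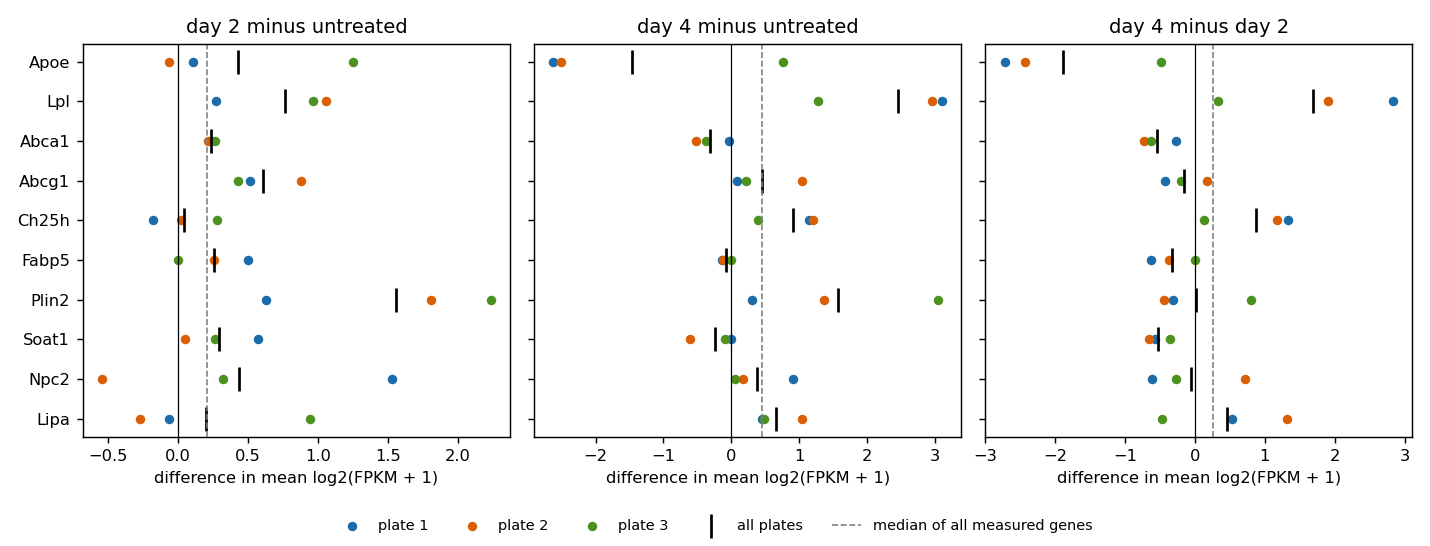
The x axis is the difference in mean log2(FPKM + 1) for each of the 10 genes in 3 comparisons. Coloured points are the 3 plates, black bars all plates together, and the dashed line the median of all measured genes. Lpl and Plin2 lie to the right of 0 on every plate in both comparisons with untreated cells, while Apoe at day 4 lies to the left on plates 1 and 2 and to the right on plate 3.

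By the rule used to call a gene higher or lower, a difference of at least 1 with the same sign on all 3 plates, few of the 9 measured members were called. At day 4 against untreated cells, Lpl and Plin2 were called higher, 2 of 9, where 18.9% of all measured genes were called higher. None was called lower, where 0.346% of all genes were. At day 2, Plin2 alone was called higher, against 3.89% of all genes, and none was called lower, against 0.0576%. Between day 4 and day 2, Lpl was called higher, where 9.57% of genes were, and Apoe lower, where 0.864% were. The members were selected on Apoe and Lpl at day 4, so nothing is read from these counts. The median difference of the 9 measured members was 0.45 at day 4 and 0.43 at day 2, against 0.45 and 0.21 for all measured genes.

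The sterol exporters were low throughout. Abca1 had a mean log2(FPKM + 1) of 0.76 ± 1.82 (SD, n = 54 cells) in untreated cells, 1.0 ± 1.55 (n = 54) at day 2 and 0.45 ± 1.30 (n = 36) at day 4. Its share of cells at 1 FPKM or more was 14.8%, 33.3% and 11.1%. Between day 2 and day 4, 8.54% of all measured genes were lower on all plates. Abca1 was among them, 0.54 lower at day 4, a size under the SD. Its mean FPKM of 7.54, 3.36 and 2.66 gave another order than the log2 means, since single untreated cells reached up to 138 FPKM. Abcg1 stood at 0.49 ± 1.2, 1.10 ± 1.85 and 0.94 ± 1.55 on the log2 scale, with 1, 6 and 1 cells at 20 FPKM or more. Both crush differences of Abcg1, 0.61 and 0.45, were positive on all plates and under the SD between cells. Of all measured genes, 28.3% were positive on all plates at day 2 and 43.4% at day 4, and their median differences were 0.21 and 0.45. The median of Abca1 in Apoe-high cells, against the others, was 0.0973 against 0.0323 FPKM without injury, 2.03 against 0.0427 at day 2 and 0.0777 against 0.0359 at day 4. At day 4 the mean log2(FPKM + 1) of Abca1 had the other order, 0.09 against 0.50.

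Ch25h encodes the enzyme that makes 25-hydroxycholesterol, an oxysterol that restrains sterol synthesis. It was near 0 in most cells and very high in a few: 2 of 54 untreated cells, 3 of 54 at day 2 and 6 of 36 at day 4 had 20 FPKM or more. Those cells held 156 and 269 FPKM in untreated eyes, 64.9, 208 and 258 at day 2, and from 39.7 to 564 at day 4. Both untreated cells were Apoe-high, as were 1 of 3 at day 2 and 1 of 6 at day 4. Mean log2(FPKM + 1) was 0.59 ± 1.47 (SD, n = 54 cells), 0.63 ± 1.68 (n = 54) and 1.5 ± 2.78 (n = 36). Day 4 minus untreated was 0.92, with 1.15, 1.20 and 0.40 by plate, and missed the size of 1. It passed with a pseudocount of 0.1 (1.19), as log2 of the mean FPKM (2.16) and without plate 3 (1.17). Its single exon lies at chr19:34473778-34475164 and overlaps the lncRNA gene Gm26902 on the other strand. Without strand the 2 genes cannot be told apart there.

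The lysosomal genes Npc2 and Lipa differed widely in level. On the log2 scale, neither they nor Soat1 differed between time points by more than the SD between cells. Npc2, a carrier of cholesterol out of the lysosome, was the second most abundant member, with a median of 138 FPKM without injury, 141 at day 2 and 135 at day 4. It was at 20 FPKM or more in 39 of 54, 47 of 54 and 31 of 36 cells. Its differences from untreated cells were 0.44 at day 2 and 0.38 at day 4, under the SD of 2.72, and at day 2 the plates had both signs. Lipa, the lysosomal acid lipase, had medians of 0.155, 0.133 and 0.240 FPKM and was at 20 FPKM or more in 8, 10 and 9 cells. Day 4 minus untreated was 0.66 for Lipa, with 0.46, 1.05 and 0.48 by plate and an SD of 2.19 in untreated cells. Soat1, which makes cholesteryl esters for storage, stood at 0.72 ± 1.53, 1.02 ± 1.71 and 0.49 ± 1.37 in mean log2(FPKM + 1). It was 0.53 lower at day 4 than at day 2, again under the SD. That difference was negative on all plates, as it was for 8.54% of all measured genes.

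Fabp5, a carrier of fatty acids in the cytosol, was listed at 0 in 41 of 54, 42 of 54 and 30 of 36 cells, and in every cell of plate 3. Of its values above 0, 67.7% were fractions of a read, against at most 31.7% for any other member. How its reads were assigned is therefore uncertain, and a listed 0 need not mean that the gene was silent. Its mean at day 2 was 23.95 FPKM because of 1 cell with 1243, an Apoe-high cell of plate 1. A second Apoe-high cell, on plate 2, had 41.2 FPKM, and no other cell exceeded 3.43.

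**Figure D5:**
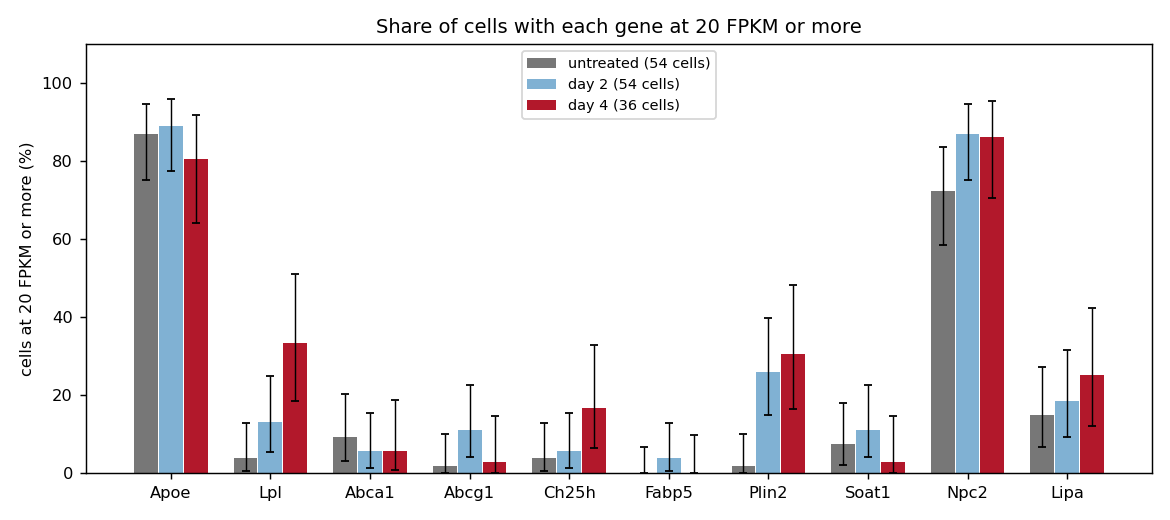
Bars give the share of cells, in percent, with each of the 10 genes at 20 FPKM or more, by time point. Error bars are exact binomial 95% intervals, for counting error only; Apoe and Npc2 stand above 70% in every group, and Lpl goes from 3.70% to 13% and 33.3%.

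In order of mean level, Apoe came first and Npc2 the next in every group. Lpl stood ninth of 10 in untreated cells and the third at day 4, while Plin2 was the seventh in untreated cells, the third at day 2 and the fifth at day 4. Among the members below Npc2, neighbours in this order were not separated beyond the SD between cells: at day 4, for example, Lpl had a mean of 43.3 FPKM with an SD of 106 and Ch25h 40.03 with an SD of 115.

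Other genes of lipid handling were taken from 8 lists of 123 genes chosen by role, of which 65 were measured. At day 4 against untreated cells, 7 of the 65 were called higher and 2 lower, where 18.9% and 0.346% of all measured genes were. The 2 lower were Abca9, a transporter (-1.11; -1.22, -0.38 and -1.74 by plate), and Cyp27a1. At day 2, 0 were called higher and 1 lower, Trem2, beside 3.89% and 0.0576% of all measured genes. Between day 4 and day 2, Gpat4, an enzyme of glycerolipid synthesis, was called higher (1.18; 0.37, 1.64 and 1.52) and Cyp27a1 lower, beside 9.57% and 0.864%. Abca9 and Gpat4 were named after their values were seen. The median of the 65 was 0.17 at day 4, against 0.45 for all measured genes, and 0.22 at day 2, against 0.21.

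Among receptors and uptake, Trem2, a receptor of microglia that binds lipids and apolipoproteins, was lower at day 2 by a difference of -1.14 (-1.15, -1.33 and -0.94 by plate), with means of 398 FPKM in untreated cells and 221 at day 2. At day 4 Trem2 was at -0.97, with both signs among the plates. Cd36, a scavenger receptor for oxidised lipoprotein and fatty acids, was 1.13 higher at day 4 (0.15, 0.72 and 2.50). Lrp1, a receptor that takes up apolipoprotein E, was at 0.60 with both signs. Apoc1 and Apoc2, neighbours of Apoe in its gene cluster, were at -0.16 and -0.08 at day 4, and neither was called.

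Of the sterol regulators, Nr1h2, 1 of the LXR receptors that switch on Abca1, Abcg1 and Apoe, was at 0.06 at day 4. The other LXR gene, Nr1h3, did not pass the filter. Cyp27a1, the enzyme of 27-hydroxycholesterol, had means of 34.2, 61.1 and 1.07 FPKM, and day 4 minus day 2 was -1.85 (-1.92, -1.66 and -1.98 by plate). Day 4 minus untreated was -1.09 for Cyp27a1, negative on all plates. Gpr183, the receptor for an oxysterol that is made from the product of Ch25h, was 1.23 higher at day 4 than in untreated cells (0.94, 1.68 and 1.07). Of the droplet genes, Plin3 was 0.74 higher at day 2 and 0.71 at day 4, positive on all plates and under 1. Among all measured genes, 28.3% and 43.4% were positive on all plates at those times. Pnpla2, the lipase that opens droplet triglyceride, was at -0.36 at day 4. Pparg, a nuclear receptor that drives Lpl and Plin2 in other cells, was listed at 0 in each group's mean.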

How the data were processed

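Each library is 1 sorted cell, made per the labels' protocols by amplifying cDNA of the lysed cell in 1 tube, with tagmentation by Nextera XT. The authors deposited FPKM values in 1 table of 55364 genes by cells. The submitters' processing notes name STAR 2.7.2b, featureCounts 1.6.1, cutadapt 1.16, Trimmomatic 0.36 and Trim Galore 0.4.4, and as builds mm10 and GRCm38.p6; the sources used here do not give the settings.

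Cells were grouped by their labels. Depth was taken from the step between low values, the worth of 1 read; within 0.01 read, a median of 59.4% of values were whole, so no count test was made. Genes were compared as means of log2(FPKM + 1), a scale that understates changes of low genes. Where a symbol had several rows, that of highest mean was taken. A gene was called higher or lower at a difference of at least 1 with the same sign on all 3 plates. Depth recovery, and the size of differences for well expressed genes, were checked on simulated data. There each gene followed 1 normal distribution without plate differences or separate levels. The call rule was therefore not tested for genes such as Apoe or for low genes. Shares have exact Clopper-Pearson 95% intervals. Python 3.11.15, numpy 2.4.6, pandas 2.3.3 and scipy 1.17.1 were used.

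The members and lists were chosen with earlier results of these data known. Genes named were the 10 members, a list of 23 partners, and the 5 genes with the highest and the 5 with the lowest Pearson r to Apoe and to Lpl, after the mean of each time point on each plate was subtracted; eligible genes were measured, reached 1 FPKM in 30% of cells in some group, shared no exon with the member, and were not mitochondrial, ribosomal protein or provisional (Gm, Rik, -ps, LOC, AC, AL) names. Other genes are given as counts, and Cst3 as an abundant gene was named after its values were seen. Alternatives covered the pseudocount, the scaling, the filter, the call rule, the plates and the cells kept.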

Additional observations from a re-analysis of the deposited data

How the results depend on the processing

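No difference of a member that met the call rule changed sign under any alternative run. With plate as a replicate block, Apoe and Lpl at day 4 minus untreated were -1.46 and 2.45, as without it, since each group has the same number of cells on every plate; the labels number the plates and do not say what a plate stands for. Lpl at day 4 minus untreated was 3.54 with a pseudocount of 0.1, 1.18 with 10 and 4.204 as log2 of the mean FPKM, and at day 2 that last scale gave 2.72.

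At day 4 against untreated cells, 2 members were called higher. With a pseudocount of 10, after subtracting the median of all genes, or with detected genes as a covariate, 1 was, Plin2 being lost each time. At a difference of 0.5, 4 were. Ch25h was gained with a pseudocount of 0.1, with log2 of the mean, and without plate 3, where Plin2 was lost. None was called lower; 1 was with log2 of the mean (Abca1), and leaving out 1 plate gave 0 to 1 (Apoe, at -2.56 without plate 3). At day 2, 1 was called higher, and 2, 0, 3 and 3 were with a pseudocount of 0.1, of 10, log2 of the mean and a difference of 0.5; leaving out 1 plate gave 1 to 2, with Lpl at 1.01 without plate 1. Between day 4 and day 2, 1 was called higher, and 2 and 0 were with pseudocounts of 0.1 and 10, 2 at a difference of 0.5, and leaving out 1 plate gave 1 to 2 (Ch25h, 1.25 without plate 3). There 1 was called lower, and 3 were with a pseudocount of 0.1 or a difference of 0.5. Without the 16 cells holding border macrophage markers, or the 23 holding markers of any other cell type, 0 were called higher and 0 lower in that comparison, since 1 plate then differed in sign; the cause was not tested.

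The correlation of Apoe and Lpl was -0.059 in untreated cells and -0.13 at day 4 as Pearson r of log2 values. At day 2 it was -0.32 as residuals on detected genes and 0.20 without cells holding 3 or more border macrophage markers, so its sign depends on the choice. Of the single member differences, 372 moved by less than the SD between plates and 48 by more, 17 of these when the mean FPKM was taken before the log2. Few Apoe-high cells at day 4, 4 in all, limit every statement about them, and 3 cells had under 1 M (1e+06) reads.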

Other observations

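High Fabp5 and high Plin2 met in 2 Apoe-high cells at day 2. The Apoe-high cell of plate 1 with 1243 FPKM of Fabp5 had 76.0 FPKM of Plin2, and the Apoe-high cell of plate 2 with 41.2 FPKM of Fabp5 had 315 FPKM of Plin2. Both values are above the median of 0.447 FPKM of Plin2 at day 2. Among the 15 Apoe-high cells at day 2, however, that median was 61.4 FPKM, and 9 had 20 FPKM or more. Plin2 in these cells is thus not set apart by their Fabp5. These 2 cells were picked by their Fabp5 and are given as values only.

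At day 4, of the 6 cells with Ch25h at 20 FPKM or more, 3 were among the 19 Lpl-positive cells and 3 among the 17 others. Lipa at 20 FPKM or more was found in 6 of the 19 and 3 of the 17.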
